A study of Homo sapiens with 24 samples.

Results

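Immune checkpoint ligands and ligands of natural killer (NK) cell receptors were followed in SKBr3 cells made senescent by 6 drugs. The 8 genes were taken by symbol from the table of read counts: CD274, CD276, CD47, PVR, NECTIN2, MICA, MICB, and ULBP2. All 8 were among the 14493 genes listed. SKBr3 (also written SKBR3) is an established HER2-positive breast cancer cell line, and mRNA-seq was run on 24 libraries in 8 groups of 3 replicates. The study asked how therapy-induced senescence (TIS) driven by drugs that block fatty acid synthesis compares with TIS driven by drugs used in cancer treatment.

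ND-646, an inhibitor of acetyl-CoA carboxylase (ACC), and TVB-3166, an inhibitor of fatty acid synthase (FASN), were each given at 250 nmol/L. Alisertib, an Aurora A kinase inhibitor, was given at 500 nmol/L, and doxorubicin, a topoisomerase II poison, at 10 nmol/L. Bleomycin, which breaks DNA, was given at 10 μmol/L, and palbociclib, a CDK4/6 inhibitor, at 1 μmol/L. Each drug group was refed on day 3 and collected on day 7. The remaining 2 groups were untreated proliferative cells collected on day 0 and on day 7. The labels name no refeeding for them, so whether the day-7 cells were refed is not stated. The labels give the same line in every group and name no engineered allele, and the libraries are of the cell line alone, with no immune cells named in the labels. Nothing in the labels says that the replicates are separate cultures, and the p-values then measure the spread between these libraries, which may be technical.

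Tumour cells show T cells, NK cells, and macrophages a set of surface ligands that either restrain or provoke an attack. PD-L1 (CD274) engages PD-1 on T cells and dampens their activity, B7-H3 (CD276) is a B7 family member with no settled receptor, and CD47 signals to SIRPα on macrophages to prevent engulfment. PVR (CD155) and NECTIN2 (CD112) bind the activating receptor DNAM-1 and the inhibitory receptor TIGIT, and NECTIN2 also binds the inhibitory receptor PVRIG. MICA, MICB, and ULBP2 are stress-induced ligands of the activating receptor NKG2D. Senescent cells are known to display NKG2D ligands and to be removed by NK cells and T cells.

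Total counts ranged from 29405121 to 44316330 per library. Levels are given as CPM, a gene's counts scaled to the size of its library (as edgeR computes it with TMM factors), ± the SD of 3 libraries, and a gene was called when its Benjamini-Hochberg adjusted p-value from edgeR's quasi-likelihood test over all genes tested was under 0.05. ND-646 replicate 1 stood apart from its group, at Euclidean distances (log2 CPM over all genes) of 82.0 and 85.3 from the other 2 ND-646 libraries, against 35.2 to 60.8 between replicates elsewhere, and day-0 replicate 1 differed from the other day-0 libraries by a chi-square of 176 and 177 per degree of freedom, against 18.8 between those. Of the 12 luminal and HER2 markers, 11 are listed and CDH1 is not. The 11 together stood at 13790 to 24020 CPM per library, with ERBB2 at 5121 to 8827 CPM and KRT8 at 1815 to 5867 CPM. Of the 12 immune cell markers the table lists only CD68, at 3.70 to 7.33 CPM in untreated cells and up to 56.4 CPM in bleomycin cells. Of the 5 endothelial markers it lists CDH5 and VWF, and of the 8 fibroblast markers COL1A1, at 6.43 to 15.3 CPM. The summed level of 8 proliferation genes was 1801 to 2258 CPM in untreated cells, 264 to 386 CPM in ND-646, 640 to 863 CPM in TVB-3166, 475 to 1033 CPM in bleomycin, 573 to 792 CPM in palbociclib, 1236 to 1380 CPM in doxorubicin, and 1320 to 1727 CPM in alisertib cells. In bulk libraries, a higher level per cell and a larger share of cells with the transcript cannot be told apart.

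The 8 genes covered a wide range of abundance. Per kilobase of exon, NECTIN2 was the most abundant, with group means of 48.2 to 62.9 CPM per kb, followed by PVR at 12.6 to 19.7 CPM per kb, CD47 at 5.83 to 7.40 CPM per kb, and CD276 at 3.25 to 7.70 CPM per kb. The other 4 were low on the same scale: CD274 at 0.383 to 2.34 CPM per kb, ULBP2 at 0.479 to 2.32 CPM per kb, MICA at 0.559 to 0.913 CPM per kb, and MICB at 0.0954 to 0.815 CPM per kb. Raw counts were 3679 or more per library for PVR and 4427 or more for NECTIN2, 34 to 436 for CD274, 47 to 161 for MICA, 14 to 128 for ULBP2, and 3 to 120 for MICB, so counting error is part of the spread of the last 4. The spread between groups was also uneven. The highest group mean was 8.55 times the lowest for MICB, 6.12 times for CD274, 4.85 times for ULBP2, and 2.37 times for CD276, but 1.64 times for MICA, 1.56 times for PVR, 1.31 times for NECTIN2, and 1.27 times for CD47. Replicate 2 was the lowest library in 7 of 8 groups for CD47 and for PVR and in 6 of 8 for MICA and ULBP2.

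**Figure D1:**
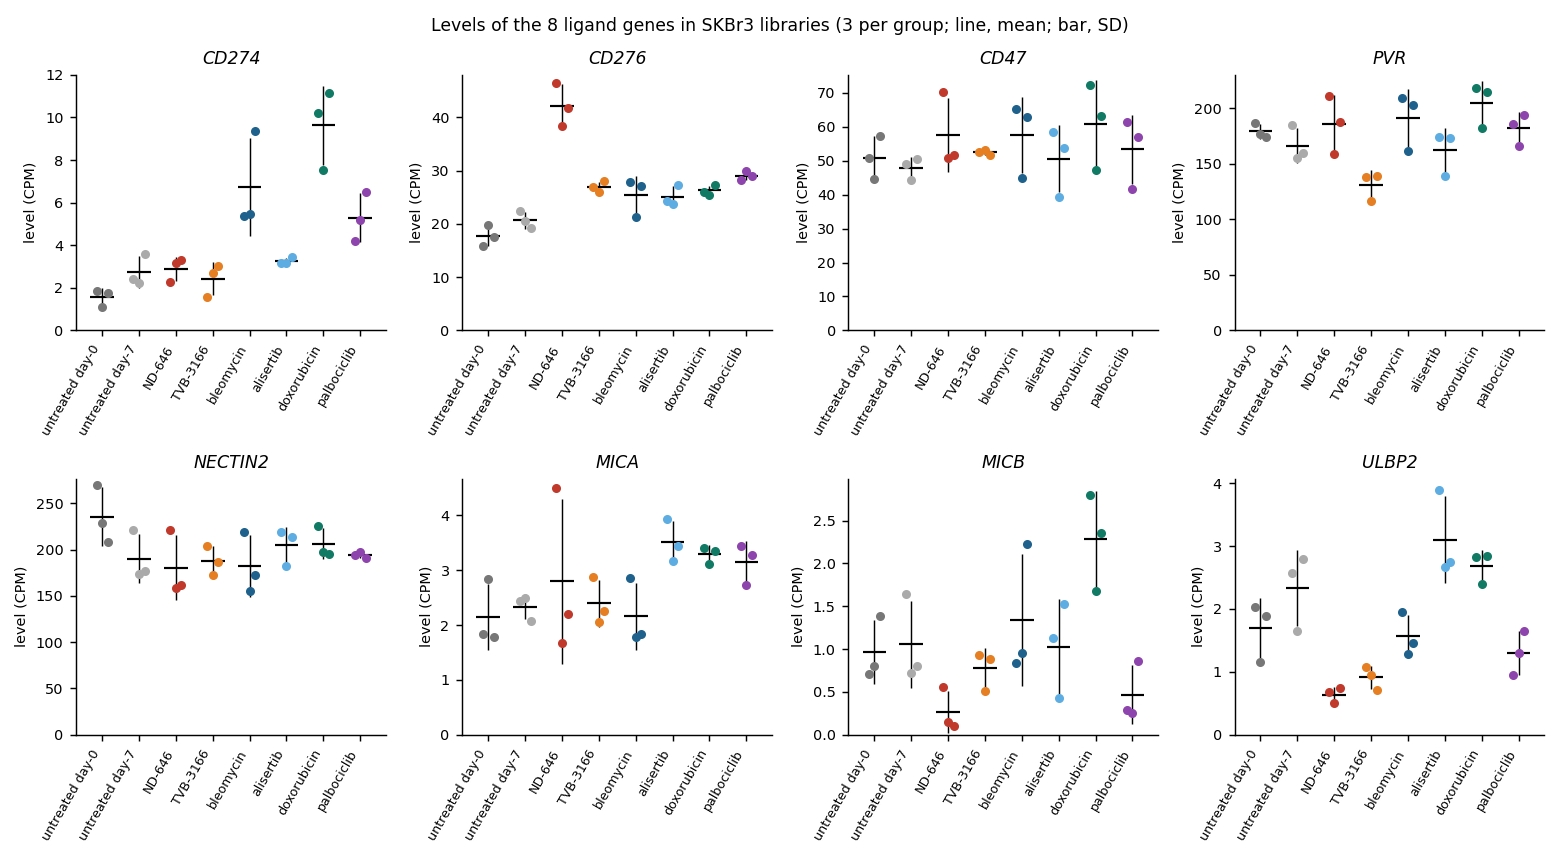
Level in CPM (vertical axes, linear from 0) of each of the 8 genes in all 24 libraries, by group; points are libraries in replicate order, horizontal lines are group means, and vertical bars are the SD of 3 libraries. CD274 reached 9.63 CPM in doxorubicin cells against 1.57 CPM in day-0 cells, CD276 reached 42.2 CPM in ND-646 cells, and CD47 stayed between group means of 48.0 and 60.9 CPM.

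Against untreated day-0 cells, all 8 genes passed the filter on low counts in every comparison, and the number called ranged from 0 to 5. With ND-646, 1 of 8 rose (CD276) and 2 fell (MICB and ULBP2), where 19.1% of all genes rose and 18.8% fell. With TVB-3166, 1 rose (CD276) and 3 fell (NECTIN2, PVR, and ULBP2), where 27.4% of all genes rose and 27.7% fell. With bleomycin, 2 rose (CD274 and CD276) and 0 fell, against 24.1% and 25.3% of all genes. With alisertib, 4 rose (CD274, CD276, MICA, and ULBP2) and 0 fell, against 17.7% and 19.6%. With doxorubicin, 5 rose (CD274, CD276, MICA, MICB, and ULBP2) and 0 fell, against 23.7% and 24.8%. With palbociclib, 2 rose (CD274 and CD276) and 1 fell (NECTIN2), against 26% and 27.2%. Among untreated day-7 cells none of the 8 was called against day-0, where 0.389% of all genes rose and 0.198% fell; 2 of the 8 had an unadjusted p-value under 0.05 there (CD274 and NECTIN2), and DESeq2 also called 0. The median log2 fold-change over the 8 ranged from -0.13 with TVB-3166 to 0.60 with doxorubicin, against medians of -0.01 to 0.02 over all genes tested.

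Against untreated day-7 cells, the control of the same age, 3 of 8 were called with ND-646 (CD276, MICB, and ULBP2), where 34.2% of all genes were called in either direction. With TVB-3166, 3 were called (CD276, PVR, and ULBP2) against 51.5% of all genes. With bleomycin, 1 was called (CD274) against 45.6%, and with alisertib 1 (MICA) against 19%. With doxorubicin, 6 were called (CD274, CD276, CD47, MICA, MICB, and PVR), all of them higher, against 43.4% of all genes. With palbociclib, 3 were called (CD274 and CD276, higher, and ULBP2, lower) against 44.8%. The 7 comparisons with day-0 share the same 3 control libraries, as do the 6 with day-7.

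**Figure D2:**
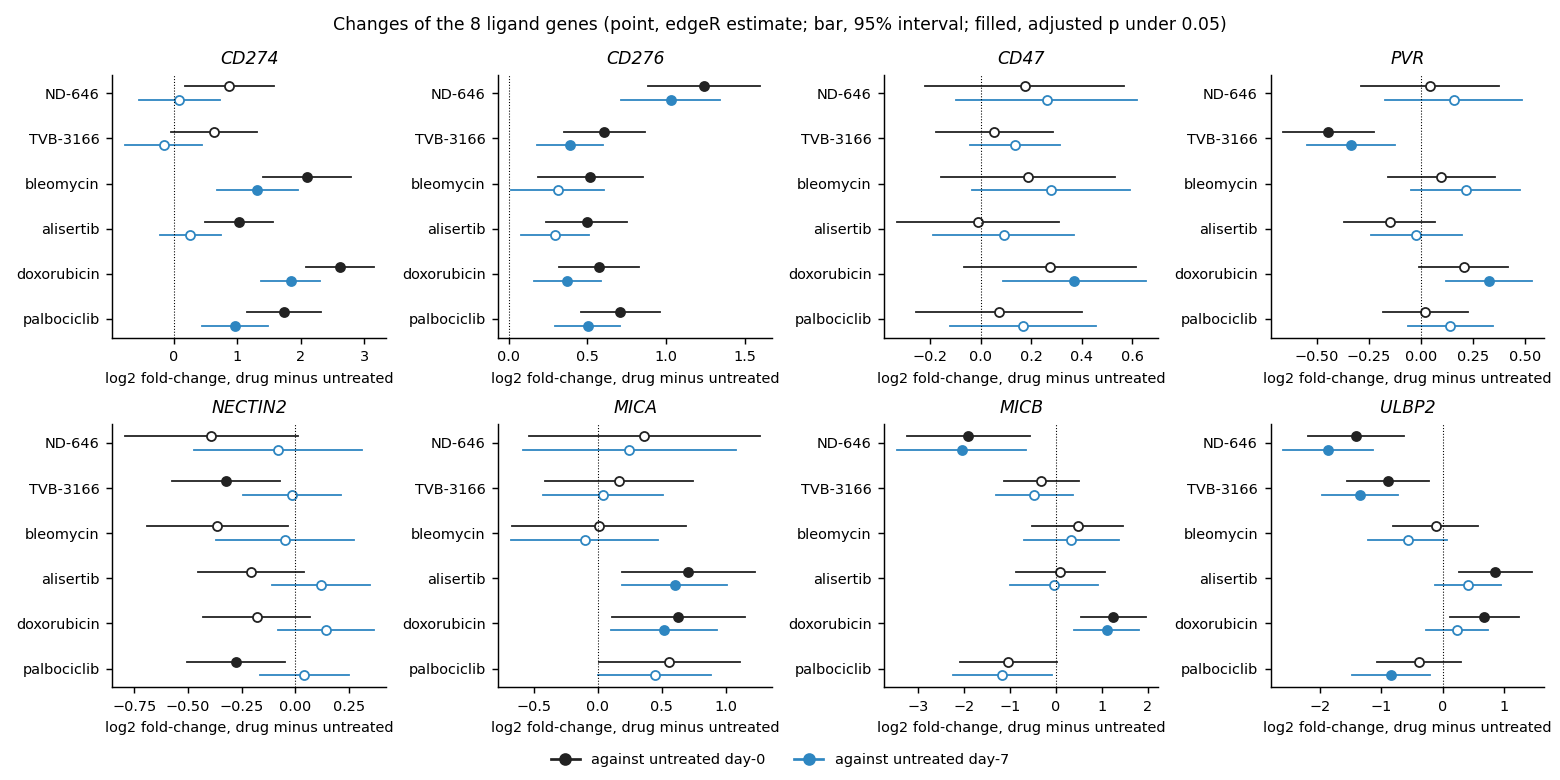
Log2 fold-change (horizontal axes, drug minus untreated) of each gene in the 6 drug groups, against untreated day-0 cells (black) and untreated day-7 cells (blue); points are edgeR estimates, bars are 95% intervals, and filled points have an adjusted p-value under 0.05. CD274 and CD276 lie to the right of 0 against day-0 in all 6 groups, whereas ULBP2 lies to the left with ND-646 and TVB-3166, at -1.41 and -0.89, and to the right with alisertib and doxorubicin, at 0.85 and 0.67.

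CD274 encodes PD-L1 and lies on chromosome 9 (GRCh37, 5450503 to 5470566, plus strand), where a long non-coding RNA gene overlaps it on the other strand. CD274 rose in the bleomycin, alisertib, doxorubicin, and palbociclib groups against day-0 cells, and rose most with doxorubicin. The 3 day-0 libraries stood at 1.86, 1.09, and 1.78 CPM and the 3 day-7 libraries at 2.39, 2.23, and 3.59 CPM. Doxorubicin libraries stood at 10.2, 7.55, and 11.2 CPM, bleomycin libraries at 5.38, 5.46, and 9.38 CPM, and palbociclib libraries at 4.20, 5.18, and 6.51 CPM. Every library of these 3 groups was above all 6 untreated libraries. Alisertib libraries, at 3.14, 3.14, and 3.45 CPM, were above the day-0 libraries but within the range of the day-7 libraries.

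Against day-0 cells the fold-change of CD274 was 6.13 with doxorubicin (log2 2.61 ± 0.24 SE, adjusted p = 4.19e-05), 4.28 with bleomycin (log2 2.1 ± 0.31, adjusted p = 0.000519), 3.34 with palbociclib (log2 1.74 ± 0.26, adjusted p = 0.000314), and 2.05 with alisertib (log2 1.03 ± 0.24, adjusted p = 0.00804). Against day-7 cells it was 3.59 with doxorubicin (adjusted p = 4.05e-05), 2.49 with bleomycin (adjusted p = 0.00525), and 1.95 with palbociclib (adjusted p = 0.00691), while alisertib gave a log2 fold-change of 0.26 with a 95% interval of -0.21 to 0.74. Untreated day-7 cells themselves differed from day-0 cells by a log2 value of 0.80 ± 0.29 without passing the test (adjusted p = 0.140), although their libraries did not overlap. None of the 7 CD274 calls was lost when any 1 library was left out or under DESeq2.

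Both lipogenesis inhibitors left CD274 close to the day-7 level. ND-646 libraries stood at 2.25, 3.15, and 3.30 CPM and TVB-3166 libraries at 1.57, 2.72, and 3.01 CPM, which overlap the day-7 libraries. Against day-7 cells the log2 fold-change was 0.09 with ND-646 (95% interval -0.55 to 0.73) and -0.16 with TVB-3166 (-0.77 to 0.45). Against day-0 cells it was 0.87 ± 0.31 with ND-646, which missed the threshold at an adjusted p of 0.0517, and 0.63 ± 0.31 with TVB-3166 (adjusted p = 0.104). The ND-646 value was called by DESeq2 (adjusted p = 0.0281), with all 24 libraries in one fit (0.0138), and without ND-646 replicate 1 (log2 1.02), and the TVB-3166 value without TVB-3166 replicate 1 (log2 0.86). In the order of the 8 group means, doxorubicin, bleomycin, palbociclib, alisertib, ND-646, day-7, TVB-3166, and day-0, only palbociclib and alisertib were neighbours whose libraries did not overlap. The endothelial markers followed the same groups, and the summed level of CDH5 and VWF was 27.3 to 47.8 CPM in the bleomycin, doxorubicin, and palbociclib libraries and 2.88 to 14.1 CPM in all others, nearly all of it CDH5, while PECAM1, KDR, and TEK are not among the genes listed. Their part in the CD274 result was not tested.

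The promoter of CD274 is shown because it holds letters of the motifs read by interferon-driven factors, some of which are among the PD-L1 regulators measured in the same cells. The sequence is from the RefSeq table (GRCh38.p14) and was matched letter for letter to GRCh37 at chr9:5450292-5450502, plus strand, with bases that an annotated exon covers left out. Capitals mark the IRF core (a pair of GAAA repeats with 2 bases between them, read here on the opposite strand, with 2 overlapping matches that begin 208 and 202 bases before the RefSeq start) and the STAT site (TTCNNNGAA, 125 bases before it).
CD274: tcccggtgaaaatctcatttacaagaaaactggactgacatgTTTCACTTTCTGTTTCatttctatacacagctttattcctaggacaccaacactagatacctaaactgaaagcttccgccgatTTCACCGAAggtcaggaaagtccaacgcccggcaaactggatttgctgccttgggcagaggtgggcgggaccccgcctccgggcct
Of 35116 promoters, each searched on both strands over the 250 bases before the start, 3.02% held the IRF core and 6.57% the STAT site. None of the other 7 genes had a match to either. A match is a run of letters and was not measured as a bound site.

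The list of 22 PD-L1 regulators holds the interferon-γ receptor, its kinases and STAT and IRF factors, NF-κB subunits, and proteins that stabilise, glycosylate, or degrade PD-L1. All 22 were tested, and the genes named here and for the lists that follow are those with the largest changes among the called genes of a list. Against day-0 cells, 13 rose and 6 fell with bleomycin, 12 and 5 with doxorubicin, 11 and 4 with TVB-3166, 9 and 7 with palbociclib, 8 and 1 with ND-646, and 6 and 5 with alisertib, and 0 of 22 were called in day-7 cells. The counts of this and of every other list stand beside 17.7% to 27.4% of all genes that rose and 18.8% to 27.7% that fell in the 6 drug groups. With ND-646, where 8 of 22 rose and 1 fell, the shares of all genes were 19.1% and 18.8%. The median log2 fold-change of the list was 0.42 with bleomycin, 0.32 with doxorubicin, 0.27 with TVB-3166, 0.18 with palbociclib, 0.14 with ND-646, and 0.10 with alisertib, against -0.01 to 0.02 over all genes. IRF1, an interferon-regulated transcription factor, rose in all 6 drug groups. Its mean was 6.31 ± 1.70 CPM in day-0 and 6.99 ± 0.25 CPM in day-7 cells, and it was 47.8 ± 8.3 CPM with bleomycin, 33.0 ± 3.3 CPM with doxorubicin, 25.4 ± 2.0 CPM with ND-646, 21.9 ± 2.6 CPM with palbociclib, 17.4 ± 2.4 CPM with TVB-3166, and 12.3 ± 2.4 CPM with alisertib. The ND-646 and palbociclib libraries overlapped for IRF1, and a relation of IRF1 to the CD274 level was not tested. IFNGR1, the ligand-binding chain of the interferon-γ receptor, rose with ND-646 (log2 1.44), doxorubicin (1.23), bleomycin (1.19), TVB-3166 (0.95), and palbociclib (0.91), and IFNGR2, its partner chain, rose with ND-646 (log2 1.63), TVB-3166 (1.32), and alisertib (0.58). B3GNT3, a glycosyltransferase that acts on PD-L1, rose with bleomycin (log2 1.23), doxorubicin (1.06), and palbociclib (0.89), and COPS5, which removes ubiquitin from PD-L1, fell with alisertib (log2 -0.53).

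CD276 (chromosome 15, GRCh37, 73976307 to 74006855, plus strand) was the 1 gene of the 8 that rose against day-0 cells in all 6 drug groups. Day-0 libraries stood at 15.9, 19.9, and 17.6 CPM and day-7 libraries at 22.4, 20.5, and 19.2 CPM. ND-646 libraries stood at 46.5, 38.3, and 41.8 CPM, above every other library in the series. Palbociclib libraries stood at 28.2, 29.9, and 29.1 CPM, TVB-3166 libraries at 26.9, 26.1, and 28.0 CPM, and doxorubicin libraries at 26.0, 25.5, and 27.3 CPM. Bleomycin libraries stood at 27.8, 21.3, and 27.0 CPM, and alisertib libraries at 24.4, 23.7, and 27.3 CPM. The lowest library of each drug group was above the highest day-0 library, but the lowest bleomycin library lay within the day-7 range.

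The fold-change of CD276 against day-0 cells was 2.36 with ND-646 (log2 1.24 ± 0.16, adjusted p = 0.000470), and from 1.41 to 1.63 in the other 5 groups: 1.63 with palbociclib (adjusted p = 0.000463), 1.52 with TVB-3166 (adjusted p = 0.00112), 1.49 with doxorubicin (adjusted p = 0.00247), 1.43 with bleomycin (adjusted p = 0.0164), and 1.41 with alisertib (adjusted p = 0.00801). Against day-7 cells it was 2.04 with ND-646 (log2 1.03 ± 0.14, adjusted p = 0.000939), 1.42 with palbociclib, 1.31 with TVB-3166, and 1.29 with doxorubicin. Alisertib and bleomycin were not called there, at log2 values of 0.30 ± 0.10 (adjusted p = 0.0562) and 0.31 ± 0.13 (adjusted p = 0.0815). Same-numbered alisertib and day-7 libraries deviated together, and with the replicate number as a block the alisertib value was called (log2 0.30, adjusted p = 0.0297). The bleomycin call against day-0 was lost without bleomycin replicate 1 (log2 0.45), bleomycin replicate 3 (0.48), or day-0 replicate 1 (0.43), and the doxorubicin call against day-7 without day-7 replicate 3 (0.31). In the order of group means ND-646 and palbociclib, palbociclib and TVB-3166, and alisertib and day-7 did not overlap, and the middle of the order, TVB-3166, doxorubicin, bleomycin, and alisertib, did. CD68 stood at 42.0 to 54.5 CPM in ND-646, 25.6 to 30.3 CPM in TVB-3166, and 34.3 to 56.4 CPM in bleomycin libraries. It stood at 8.48 to 12.9 CPM in palbociclib, 9.255 to 10.2 CPM in doxorubicin, and 4.78 to 5.78 CPM in alisertib libraries. The part of CD68 in the CD276 result was not tested, and none of the other 11 immune markers is listed.

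The list of other checkpoint ligands of the B7 family and related receptors has 18 genes, of which 9 are in the table. PD-L2 (PDCD1LG2), CD80, and CD86 are among those not listed. Of the 9, 7 rose and 2 fell with bleomycin, 7 and 0 with doxorubicin, 6 and 1 with TVB-3166, 6 and 0 with ND-646, and 3 and 0 with alisertib, and of 8 tested 5 rose and 1 fell with palbociclib. The median log2 fold-change of those tested was 2.54, 1.65, 1.30, 2.02, 0.73, and 1.07 in the same order. CEACAM1, a ligand of TIM-3 that inhibits T cells and NK cells, rose in all 6 groups, from 0.491 ± 0.066 CPM in day-0 cells to 15.3 ± 2.4 CPM with bleomycin and 1.95 ± 0.44 CPM with alisertib. LGALS9 (galectin-9), another TIM-3 ligand, was at 0.576 ± 0.069 CPM in day-0 cells and rose to 11.5 ± 2.0 CPM with bleomycin, 4.33 ± 0.60 CPM with doxorubicin, and 3.21 ± 0.27 CPM with TVB-3166. VSIR (VISTA), a B7 family checkpoint, was at 6.54 ± 1.13 CPM in day-0 cells and at 40.7 ± 6.5 CPM with bleomycin (log2 2.64 ± 0.18, adjusted p = 1.44e-05). TNFSF9, the costimulatory ligand of 4-1BB, rose with ND-646 (log2 2.92 ± 0.63, adjusted p = 0.00676) and TVB-3166 (log2 2.49 ± 0.44, adjusted p = 0.000612), and BTN3A1, a butyrophilin seen by γδ T cells, also rose in untreated day-7 cells (log2 1.33 ± 0.21, adjusted p = 0.0434).

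CD47 (chromosome 3, GRCh37, 107761938 to 107810709, minus strand) was not called in any comparison with day-0 cells. Day-0 libraries stood at 50.7, 44.5, and 57.2 CPM, day-7 libraries at 49.0, 44.4, and 50.5 CPM, and the drug-treated libraries ranged from 39.4 CPM (alisertib replicate 2) to 72.4 CPM (doxorubicin replicate 1). All neighbours in the order of group means overlapped. The log2 fold-changes against day-0 ran from -0.01 with alisertib (95% interval -0.33 to 0.31) to 0.27 with doxorubicin (-0.07 to 0.61). These intervals leave room for changes of up to 0.61 on the log2 scale with doxorubicin and 0.28 with TVB-3166. Against day-7 cells CD47 was called with doxorubicin only (fold-change 1.29, log2 0.37 ± 0.13, adjusted p = 0.0367), with overlapping libraries. That call was lost in 5 of the 6 fits that left out 1 library (log2 0.23 to 0.52) and kept without doxorubicin replicate 2, and it was lost with all 24 libraries in one fit (adjusted p = 0.143). Without doxorubicin replicate 2, CD47 was called against day-0 as well (log2 0.43). Against day-7 cells CD47 was also called with bleomycin when bleomycin replicate 2 was left out (log2 0.43). The same held with palbociclib when palbociclib replicate 2 was left out (log2 0.33).

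Of the 9 listed genes among 10 other phagocytosis signals, 6 rose with doxorubicin, 5 with bleomycin, 3 with palbociclib, and 2 each with ND-646, TVB-3166, and alisertib, and 1 fell with TVB-3166 and 1 with palbociclib. QPCT, a secreted glutaminyl cyclase and relative of the enzyme that modifies CD47, rose with doxorubicin (log2 1.79 ± 0.20) and bleomycin (1.77 ± 0.24). THBS1, a secreted ligand of CD47, rose with doxorubicin from 154.7 ± 38.4 to 408.5 ± 93.7 CPM (adjusted p = 0.000520) and fell with TVB-3166 to 111.1 ± 3.7 CPM (adjusted p = 0.0245). LRP1, the receptor for the engulfment signal calreticulin, rose with bleomycin (log2 1.67), palbociclib (1.40), ND-646 (1.21), and alisertib (0.84). B2M, the shared light chain of MHC class I and a brake on macrophages, rose with ND-646 (log2 0.77 ± 0.17) and TVB-3166 (0.51 ± 0.11). SIRPA, which encodes the receptor of CD47, fell with palbociclib (log2 -0.71 ± 0.24).

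PVR (chromosome 19, GRCh37, 45147098 to 45169430, plus strand) fell with TVB-3166 and with no other drug. It shares its strand with the overlapping gene CEACAM19, so reads there can be split differently by other counting rules. TVB-3166 libraries stood at 138.4, 116.4, and 139.1 CPM. Day-0 libraries stood at 187.2, 177.3, and 174.1 CPM, day-7 libraries at 184.7, 155.3, and 159.6 CPM, and ND-646 libraries at 211.3, 158.8, and 187.9 CPM, so that the TVB-3166 libraries were below all libraries of these 3 groups. The log2 fold-change was -0.45 ± 0.10 against day-0 (adjusted p = 0.00279) and -0.34 ± 0.10 against day-7 cells (adjusted p = 0.0127); the second call was lost without TVB-3166 replicate 2 (log2 -0.26). With doxorubicin PVR reached 218.5, 182.4, and 214.9 CPM and was called against day-7 (fold-change 1.26, log2 0.33 ± 0.10, adjusted p = 0.0150) but not against day-0 (log2 0.21 ± 0.10, adjusted p = 0.10). The day-7 call was lost in 4 of 6 fits that left out 1 library (without day-7 replicate 2 or 3 or doxorubicin replicate 1 or 3, log2 0.26 to 0.28) and with all 24 libraries in one fit (adjusted p = 0.0631). Alisertib and TVB-3166, the lowest pair of groups, were the only neighbours in the order of means without overlap.

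NECTIN2 (chromosome 19, GRCh37, 45349432 to 45392480, plus strand), the most abundant of the 8, was lower on average in all 6 drug groups and in day-7 cells than in day-0 cells. Day-0 libraries stood at 270.1, 228.3, and 207.9 CPM and day-7 libraries at 220.6, 173.8, and 176.4 CPM. TVB-3166 libraries, at 204.0, 172.2, and 186.3 CPM, and palbociclib libraries, at 194.2, 197.4, and 191.3 CPM, were below all 3 day-0 libraries. NECTIN2 fell with TVB-3166 (log2 -0.32 ± 0.12, adjusted p = 0.0332) and with palbociclib (log2 -0.28 ± 0.10, adjusted p = 0.0436). Leaving out 1 library ended the TVB-3166 call in 4 of 6 fits (log2 -0.40 to -0.21; it held without day-0 replicate 3 or TVB-3166 replicate 1) and the palbociclib call in 5 of 6 (log2 -0.36 to -0.16; it held without day-0 replicate 3). With all 24 libraries in one fit both were lost (adjusted p = 0.0555 and 0.107), and NECTIN2 was called instead with ND-646 (log2 -0.38) and bleomycin (log2 -0.37). Without ND-646 replicate 1, the ND-646 value was -0.56 and called, and without bleomycin replicate 1 the bleomycin value was -0.52 and called. Against day-7 cells no drug group was called, and the log2 values lay between -0.08 and 0.14.

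Of the 7 nectins and nectin-like genes on the list, 4 are in the table, and against day-0 cells 1 rose and 1 fell in each drug group, except alisertib, where 0 rose and 1 fell. NECTIN4, an adhesion protein that is also a ligand of TIGIT, rose from 29.5 ± 9.3 CPM in day-0 cells to 76.9 ± 9.0 CPM with TVB-3166, 70.6 ± 8.3 CPM with ND-646, 59.7 ± 8.3 CPM with palbociclib, 51.5 ± 8.5 CPM with doxorubicin, and 46.1 ± 7.8 CPM with bleomycin. NECTIN1, an adhesion partner in the same family, fell in all 6 drug groups, from 157.3 ± 19.5 CPM to 76.8 ± 11.9 CPM with bleomycin and to 104.5 ± 7.6 CPM with alisertib.

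MICA (chromosome 6, GRCh37, 31367561 to 31383092, plus strand) and MICB (31462658 to 31478901) are neighbouring paralogues in the MHC class I region. Of all 50-base windows of the MICB transcripts, 1.61% also occur in MICA, so few reads could be assigned to the wrong gene, but both genes are highly polymorphic, and how reads that differ from the reference were placed is not given in the sources used here. Day-0 libraries held 1.83, 2.85, and 1.78 CPM of MICA and day-7 libraries 2.44, 2.49, and 2.08 CPM. MICA rose with alisertib, at 3.93, 3.17, and 3.45 CPM, and with doxorubicin, at 3.41, 3.11, and 3.35 CPM, and all 6 of these libraries were above all 6 untreated ones. Palbociclib libraries, at 3.44, 2.73, and 3.28 CPM, overlapped day-0 but not day-7 cells and were not called against either (adjusted p = 0.0806 and 0.0944). ND-646 libraries were uneven, at 4.51, 1.68, and 2.21 CPM, and replicate 1 was the highest MICA library in the series.

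The MICA fold-change against day-0 cells was 1.63 with alisertib (log2 0.71 ± 0.24, adjusted p = 0.0367) and 1.55 with doxorubicin (log2 0.63 ± 0.23, adjusted p = 0.0471), and against day-7 cells 1.52 (log2 0.60 ± 0.19, adjusted p = 0.0452) and 1.43 (log2 0.52 ± 0.19, adjusted p = 0.0434). These 4 calls were near the threshold. Leaving out 1 library ended both calls against day-0 in 5 of 6 fits (log2 0.59 to 0.97 and 0.51 to 0.88; each held without day-0 replicate 2) and both calls against day-7 in all 6 (log2 0.52 to 0.67 and 0.43 to 0.55), and with all 24 libraries in one fit all 4 were lost (adjusted p = 0.0544 to 0.200).

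MICB was the least abundant of the 8 and varied most between groups. Day-0 libraries held 0.712, 0.799, and 1.39 CPM and day-7 libraries 1.64, 0.724, and 0.802 CPM. Doxorubicin libraries stood at 2.80, 1.68, and 2.36 CPM, above all 6 untreated libraries. ND-646 libraries stood at 0.553, 0.143, and 0.105 CPM, from 13, 4, and 3 counts, below all 6. Palbociclib libraries were also low in 2 of 3 cases, at 0.289, 0.254, and 0.866 CPM, and bleomycin libraries were high in 1 of 3, at 0.841, 0.958, and 2.22 CPM.

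MICB rose with doxorubicin, by a fold-change of 2.39 against day-0 (log2 1.25 ± 0.32, adjusted p = 0.00899) and 2.16 against day-7 cells (log2 1.11 ± 0.33, adjusted p = 0.0157). The day-7 call was lost without day-7 replicate 2 (log2 0.89), day-7 replicate 3 (0.94), or doxorubicin replicate 1 (0.93) and with all 24 libraries in one fit (adjusted p = 0.0904). MICB fell with ND-646, at log2 values of -1.90 ± 0.59 against day-0 (adjusted p = 0.0321) and -2.05 ± 0.61 against day-7 cells (adjusted p = 0.0337). Summed over 3 libraries each and scaled for depth, day-0 cells held 3.83 times as much MICB as ND-646 cells (100 against 20 counts, exact 95% interval 2.35 to 6.54) and day-7 cells 4.45 times as much (126 against 20 counts, 2.76 to 7.53), intervals that cover counting error only. Both ND-646 calls were lost in 5 of 6 fits that left out 1 library and held without ND-646 replicate 1, the library with the most MICB, where the log2 values were -2.92 and -3.08. With palbociclib MICB was not called against day-0 (log2 -1.03 ± 0.48, adjusted p = 0.0942) or day-7 cells (log2 -1.17 ± 0.49, adjusted p = 0.0740). It was called against day-0 without palbociclib replicate 3 (log2 -1.81). With the replicate number as a block in edgeR it was called against day-0 (log2 -1.12, adjusted p = 0.0235) and day-7 cells (log2 -1.19, adjusted p = 0.0243).

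The upstream sequences of MICA and MICB are shown because the 2 paralogues are neighbours with similar promoters and were called in different sets of groups; the difference between the genes was not tested. Over 254 aligned columns of the 2 RefSeq promoter windows, 82.7% of letters were identical. The stretches below, free of annotated exons, were matched to GRCh37 at chr6:31371122-31371221 for MICA and chr6:31465672-31465862 for MICB, both plus strand. Both lie before the RefSeq start used here but within the gene positions given above. Capitals mark a heat shock core (GAANNTTC) and a CCAAT box (CCAAT, read here on the opposite strand), both of which lie in the MICB stretch and outside the MICA stretch.
MICA: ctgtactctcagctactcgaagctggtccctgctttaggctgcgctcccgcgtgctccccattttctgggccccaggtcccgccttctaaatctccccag
MICB: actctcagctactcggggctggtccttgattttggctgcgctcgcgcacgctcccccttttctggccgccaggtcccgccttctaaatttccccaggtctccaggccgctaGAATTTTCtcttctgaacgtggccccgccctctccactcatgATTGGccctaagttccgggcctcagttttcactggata
The heat shock core began 139 bases before the RefSeq start in MICB and 135 bases before it in MICA. The CCAAT box began 97 bases before that start in MICB, and MICA had 2 matches, at 93 and 64 bases. The same core occurred in 5.78% of all 35116 promoters and in none of the other 6 genes, and the CCAAT box in 32% of promoters.

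ULBP2 (chromosome 6, GRCh37, 150263150 to 150270371, plus strand) fell with both lipogenesis inhibitors and rose with alisertib and doxorubicin against day-0 cells. ND-646 libraries stood at 0.680, 0.500, and 0.736 CPM and TVB-3166 libraries at 1.07, 0.949, and 0.718 CPM. Day-0 libraries stood at 2.03, 1.15, and 1.89 CPM and day-7 libraries at 2.57, 1.65, and 2.79 CPM, and all 6 libraries of the lipogenesis inhibitors were below all 6 untreated libraries. Alisertib libraries stood at 3.90, 2.66, and 2.74 CPM and doxorubicin libraries at 2.83, 2.39, and 2.84 CPM, above the day-0 but not the day-7 libraries. Bleomycin libraries, at 1.95, 1.28, and 1.46 CPM, overlapped day-0 cells, and palbociclib libraries, at 0.955, 1.30, and 1.64 CPM, were just below the day-7 libraries.

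With ND-646 the log2 fold-change of ULBP2 was -1.41 ± 0.35 against day-0 (adjusted p = 0.0124) and -1.87 ± 0.32 against day-7 cells (adjusted p = 0.00303), and with TVB-3166 it was -0.89 ± 0.31 (adjusted p = 0.0283) and -1.35 ± 0.28 (adjusted p = 0.00207). ULBP2 was 3.65 times lower in ND-646 and 2.55 times lower in TVB-3166 cells than in untreated cells of the same day. Both day-7 calls held when any 1 library was left out. Against day-0, the ND-646 call was lost without ND-646 replicate 2 (log2 -1.27) and the TVB-3166 call without day-0 replicate 1 or 3 or TVB-3166 replicate 2 or 3 (log2 -0.92 to -0.74). The rise against day-0 was 1.81-fold with alisertib (log2 0.85 ± 0.27, adjusted p = 0.0296) and 1.59-fold with doxorubicin (log2 0.67 ± 0.25, adjusted p = 0.0493). Leaving out 1 library ended the alisertib call in 4 of 6 fits (log2 0.66 to 1.02; it held without day-0 replicate 1 or 3) and the doxorubicin call in 5 of 6 (log2 0.46 to 0.82; it held without day-0 replicate 1), and neither was called against day-7 cells (log2 0.41 and 0.22). With palbociclib ULBP2 fell against day-7 (log2 -0.84 ± 0.29, adjusted p = 0.0349), a call lost in 4 of 6 such fits (without day-7 replicate 1 or 3 or palbociclib replicate 1 or 2, log2 -0.83 to -0.65). Of all 50-base windows of the ULBP2 transcripts, 29.7% also occur in RAET1L and 11.7% in RAET1G, so that reads could be shared out between these genes.

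The other NKG2D ligands differed among themselves. Of 5 on the list, 4 are in the table. ULBP1 rose in all 6 drug groups against day-0 cells and was the only one of the tested genes on this list called in 5 of them; with doxorubicin RAET1G and ULBP3 also rose. ULBP1 libraries ranged from 2.75 to 3.76 CPM in day-0 and from 3.92 to 8.69 CPM in day-7 cells, and from 14.6 to 21.9 CPM with ND-646, 11.7 to 14.4 CPM with TVB-3166, and 13.9 to 23.7 CPM with bleomycin, against 4.24 to 7.01 CPM in the other 3 drug groups. Against day-7 cells ULBP1 rose with ND-646 (log2 1.49, adjusted p = 0.00630), TVB-3166 (1.14, adjusted p = 0.00188), and bleomycin (1.61, adjusted p = 0.00212). The groups with the least ULBP2 transcript, ND-646 and TVB-3166, had ULBP1 means of 17.2 ± 4.0 and 13.4 ± 1.5 CPM against 3.10 ± 0.58 CPM in day-0 cells (log2 2.46 and 2.11). ULBP3 stood between 9.05 ± 1.70 CPM in day-0 and 14.1 ± 1.8 CPM in doxorubicin cells. RAET1G was low, from 0.143 ± 0.084 CPM with TVB-3166 to 0.964 ± 0.376 CPM with doxorubicin, with 2 counts in its lowest library, and, as for ULBP2, its level was lower with the lipogenesis inhibitors than with the other 4 drugs (log2 -1.95, adjusted p = 4.4e-05), where that of ULBP1 was higher (log2 0.94, adjusted p = 1.07e-05). RAET1E stood between 0.489 ± 0.387 CPM with ND-646 and 1.53 ± 0.13 CPM with alisertib.

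**Figure D3:**
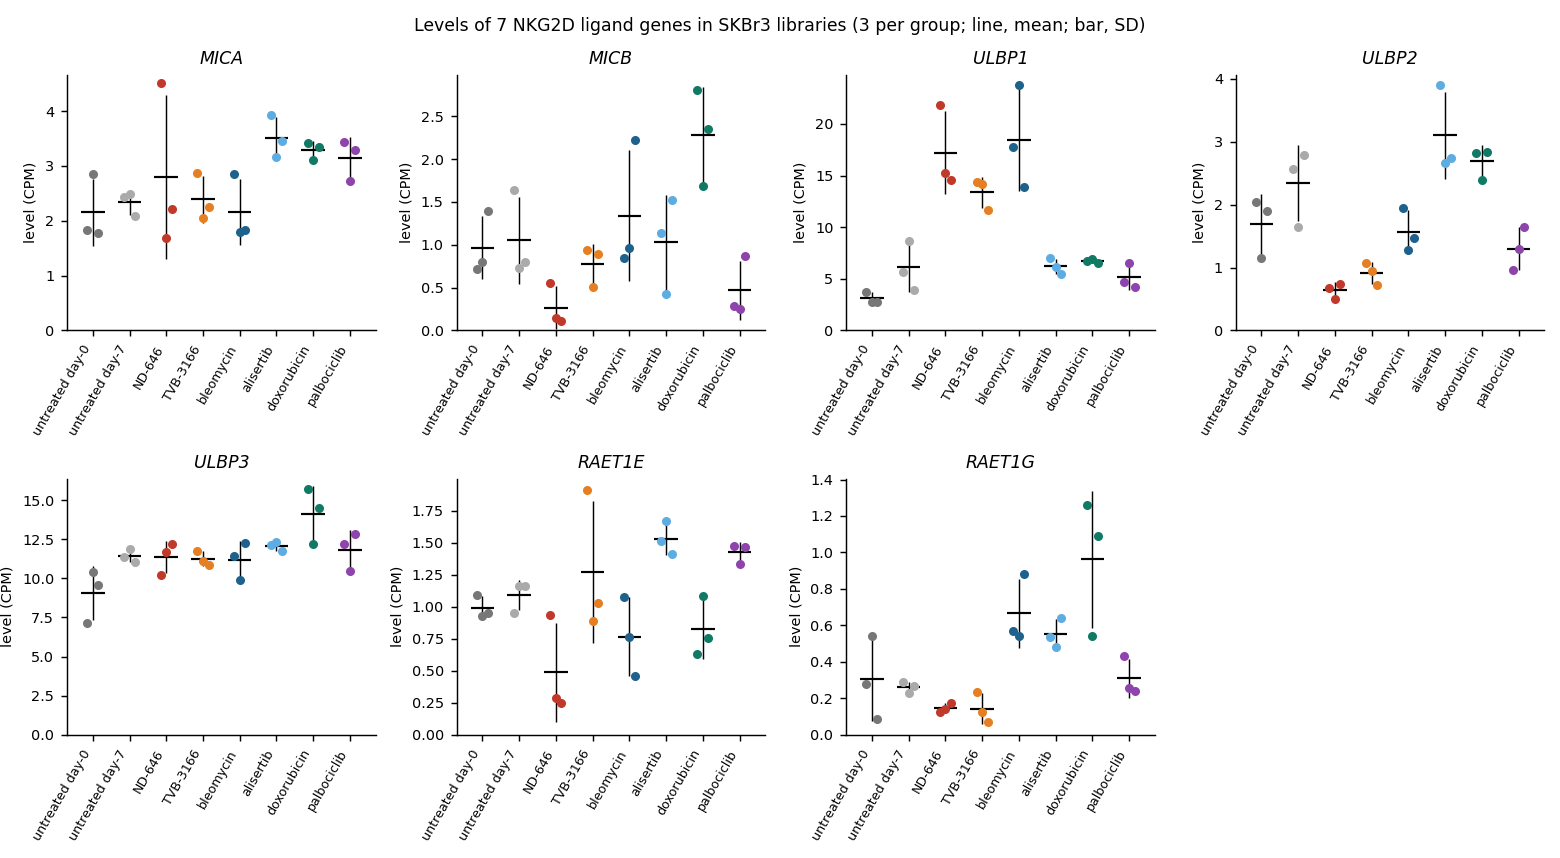
Level in CPM (vertical axes, linear from 0) of 7 NKG2D ligand genes in all 24 libraries by group; points are libraries, horizontal lines are means, and vertical bars are the SD of 3 libraries. ULBP2 was lowest with ND-646 and TVB-3166, at means of 0.639 and 0.912 CPM, where ULBP1 stood at 17.2 and 13.4 CPM, and MICB was highest with doxorubicin, at 2.28 CPM.

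Regulators that are known to act on NKG2D ligands form a list of 14 genes, of which 13 are in the table. Against day-0 cells 0 rose and 4 fell with ND-646, 2 rose and 5 fell each with TVB-3166 and bleomycin, 3 and 5 with doxorubicin, 2 and 4 with palbociclib, and 1 and 2 with alisertib. Of all genes, 19.1% rose and 18.8% fell with ND-646, 27.4% and 27.7% with TVB-3166, and 24.1% and 25.3% with bleomycin. The shares were 23.7% and 24.8% with doxorubicin, 26% and 27.2% with palbociclib, and 17.7% and 19.6% with alisertib. Whether the list differs from all genes was not tested. The DNA damage checkpoint kinase CHEK1 fell in all 6 groups, from 59.0 ± 6.2 CPM to 10.5 ± 1.4 CPM with ND-646 and 37.1 ± 2.5 CPM with alisertib. E2F1, an S phase transcription factor, fell in the 5 groups other than alisertib (log2 -2.31 with ND-646 and -0.81 with doxorubicin). ATM, the kinase that senses DNA breaks, rose with palbociclib (log2 1.05), TVB-3166 (0.71), alisertib (0.71), and doxorubicin (0.58). The proteases and chaperones that release these ligands from the surface number 8, with 7 in the table: 5 rose with doxorubicin and with palbociclib, 4 with bleomycin, 3 with ND-646 and with TVB-3166, and 2 with alisertib, and 1 fell in each group except ND-646. ADAM9, which sheds MICA, rose from 117.1 ± 24.9 CPM in day-0 cells to 240.2 ± 57.1 CPM with ND-646, 229.5 ± 13.5 CPM with palbociclib, 204.8 ± 11.8 CPM with TVB-3166, 197.0 ± 40.5 CPM with doxorubicin, 184.4 ± 31.4 CPM with bleomycin, and 179.6 ± 16.2 CPM with alisertib. TIMP3, an inhibitor of ADAM17, rose with doxorubicin (log2 1.84 ± 0.24) and palbociclib (1.80 ± 0.28).

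Among 16 further ligands and targets of NK cells, 10 are in the table. ICAM1, the adhesion ligand that NK and T cells hold on to through LFA-1, rose in all 6 groups, from 3.08 ± 0.83 CPM in day-0 cells to 60.8 ± 10.6 CPM with bleomycin, 34.8 ± 6.6 CPM with doxorubicin, 17.3 ± 1.8 CPM with ND-646, 11.4 ± 0.3 CPM with palbociclib, 9.31 ± 0.83 CPM with TVB-3166, and 4.87 ± 0.32 CPM with alisertib. The death receptor TNFRSF10B rose with ND-646 (log2 1.28), TVB-3166 (1.01), bleomycin (0.82), palbociclib (0.60), and alisertib (0.56). PCNA, a replication clamp that is also a ligand of NKp44, fell in all 6 groups, from 215.4 ± 22.4 CPM to 50.4 ± 7.0 CPM with ND-646 and 126.6 ± 13.1 CPM with alisertib.

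Differences between drug groups were tested directly in a fit of all 24 libraries. TVB-3166 and ND-646, which act on successive enzymes of fatty acid synthesis and were given at the same dose, differed for 2 of the 8 genes, where 9.01% of all genes were called. CD276 was lower with TVB-3166 (log2 -0.65 ± 0.11, adjusted p = 0.000945), and PVR was lower as well (log2 -0.51 ± 0.12, adjusted p = 0.0133). Fitted with only the 6 libraries compared, neither was called (adjusted p = 0.0690 and 0.176). The PVR call was lost without ND-646 replicate 1 (log2 -0.39) or TVB-3166 replicate 2 (log2 -0.42). MICB was higher with TVB-3166 by a log2 value of 1.58 ± 0.66 without passing the test (adjusted p = 0.138), and without ND-646 replicate 1 it was called (log2 2.62). For ULBP2 and CD274 the intervals of the difference ran from -0.15 to 1.17 and from -0.86 to 0.33.

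The mean of ND-646 and TVB-3166 differed from the mean of the 4 other drug groups for 5 of the 8 genes, against 51% of all genes. CD274 was lower with the lipogenesis inhibitors (log2 -1.11 ± 0.18, adjusted p = 1.89e-05), and so were ULBP2 (log2 -1.40 ± 0.19, adjusted p = 2.37e-06), MICB (log2 -1.30 ± 0.38, adjusted p = 0.00677), and PVR (log2 -0.24 ± 0.08, adjusted p = 0.0133), whereas CD276 was higher (log2 0.36 ± 0.07, adjusted p = 0.000118). On the scale of levels these are means of 2.67 against 6.23 CPM for CD274, 0.776 against 2.16 CPM for ULBP2, and 34.6 against 26.5 CPM for CD276. The libraries of both sides overlapped for every one of the 8 genes. The PVR call was lost without ND-646 replicate 2 (log2 -0.19) or TVB-3166 replicate 2 (log2 -0.20), and MICA was called as well without ND-646 replicate 1 (log2 -0.46).

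Bleomycin and doxorubicin, which damage DNA, differed from alisertib and palbociclib, which act on cell cycle kinases, for 2 of the 8 genes, against 32.7% of all genes. CD274 was higher with the DNA-damaging drugs (log2 0.96 ± 0.19, adjusted p = 0.000514), as was MICB (log2 1.32 ± 0.37, adjusted p = 0.00894). The libraries of both sides overlapped for both genes. For CD274, bleomycin libraries at 5.38 to 9.38 CPM overlapped palbociclib libraries at 4.20 to 6.51 CPM. For MICB, bleomycin libraries at 0.841, 0.958, and 2.22 CPM overlapped alisertib libraries at 0.430 to 1.52 CPM, and doxorubicin libraries stood at 1.68 to 2.80 CPM. PVR was not called (log2 0.21 ± 0.09, adjusted p = 0.0753), but was without bleomycin replicate 2 (0.26), doxorubicin replicate 2 (0.24), or ND-646 replicate 1 (0.21). With the replicate number as a block it was called as well (log2 0.20, adjusted p = 0.00651); same-numbered libraries deviated together in all 3 numbers for alisertib and bleomycin, alisertib and palbociclib, bleomycin and palbociclib, and doxorubicin and palbociclib, but not for alisertib and doxorubicin. The interval for ULBP2 was -0.36 to 0.42, and that for CD276 -0.22 to 0.10.

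**Figure D4:**
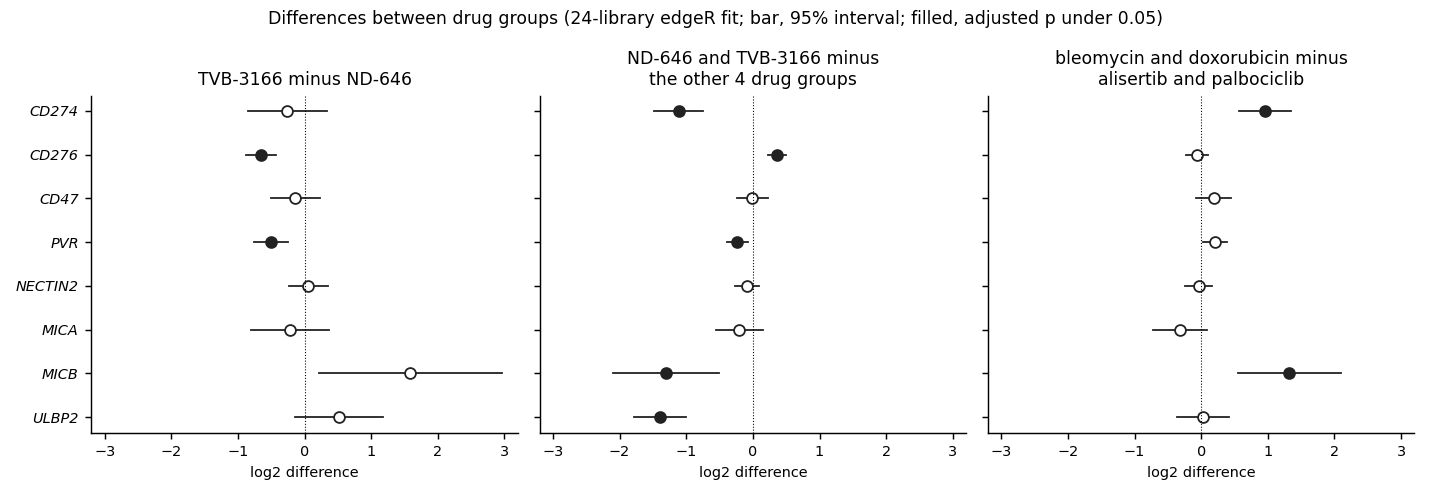
Log2 difference (horizontal axes) for each of the 8 genes in 3 contrasts between drug groups from 1 edgeR fit of all 24 libraries; bars are 95% intervals and filled points have an adjusted p-value under 0.05. In the middle panel CD274, PVR, MICB, and ULBP2 lie to the left of 0 and CD276 to the right, at 0.36, and in the right panel only CD274 and MICB are filled.

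The genes whose group means followed each ligand most closely were found among 12608 genes with a mean of at least 1 CPM, as Pearson's r of log2 CPM over the 8 group means, a description with few points that share libraries. For CD274 they included NUDT19 (r = 0.969) and ELK4 (0.964), and for CD276 PPP1R12C (0.977) and SLC25A24 (0.970). PVR was followed by AJUBA (0.994), EIF5B (0.930), and UGGT1 (0.914), and NECTIN2 by ZNF613 (0.967), ARMC5 (0.957), and BATF (0.949). CD47 was followed by CRYBG3 (0.970), NEDD4L (0.962), and CHKA (0.961), MICA by LTO1 (0.956), GVQW3 (0.954), and USP35 (0.952), MICB by TSPYL6 (0.967), ATF7IP (0.95), and GFOD1 (0.943), and ULBP2 by SUZ12 (0.966), RBM15 (0.959), and ZNF227 (0.952). Over the 24 single libraries AJUBA kept the first rank for PVR (r = 0.935), whereas CRYBG3 dropped to r = 0.015 with CD47. LTO1, GVQW3, and USP35 dropped to r = 0.360, 0.037, and 0.265 with MICA, and NUDT19 to 0.614 with CD274. BATF and ARMC5 stood at r = 0.848 and 0.828 with NECTIN2. Among the 8 genes themselves, the highest r over the group means was 0.772, for MICB and ULBP2, and the lowest -0.680, for CD276 and NECTIN2.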

How the data were processed

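RNA from 24 libraries of SKBr3 cells in 8 groups of 3 was sequenced by the authors, who aligned reads with HISAT2 to GRCh37, and whose notes also name bcl2fastq, StringTie, and DESeq2. The labels name a TruSeq stranded mRNA kit and the methods a total RNA kit, and the counting settings and the use of strand are not given in the sources used here. The deposited values are raw read counts per gene, not normalized, for 14493 genes with a lowest count of 1, so no listed gene has a count of 0 in any library. No column was left without a sample.

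Counts were tested with edgeR 4.0.16 (quasi-likelihood test, filterByExpr, TMM) in R 4.3.3, with Benjamini-Hochberg adjustment over all genes tested and a threshold of 0.05. Each of 13 comparisons with untreated cells used its own 6 libraries, and 3 contrasts between drug groups used all 24. Groups of 3 against 3 cannot give an exact permutation p under 0.1, so p-values come from the model across genes. The scripts were tested on simulated data. CPM are after TMM, and correlations use log2 CPM with a prior count of 2. All 8 genes, the 3 genes most like each (for CD274 and CD276, 1 of the 3 is not reported here), and up to 4 called genes per list and comparison with the largest log2 fold-changes are named. IRF1, CDH5, CD68, and the NKG2D ligands are shown in all groups as well. The 8 genes and the lists were chosen with earlier results of these data known. Alternatives were DESeq2 1.42.0, size factors by RLE, fits without the filter or with a minimum of 10 counts per library, other sets of libraries in the fit, the replicate number as a block, a fold-change of at least 2 with an unadjusted p under 0.05, and leaving out each library. Same-numbered libraries deviated together, with all 3 correlations of their deviations from the group means over 0.1, for bleomycin and day-7 (0.107 to 0.142), alisertib and day-7 (0.105 to 0.218), and TVB-3166 and ND-646 (0.213 to 0.380), and in no comparison with day-0. Promoters are from a RefSeq table (GRCh38.p14), and all 8 genes were matched by symbol.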

Additional observations from a re-analysis of the deposited data

Results flagged for a closer look

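The direct tests between drug groups found 9 differences among the 8 genes. Of all genes, 9.01%, 51%, and 32.7% were called in the 3 contrasts, in the order given here. Between the 2 lipogenesis inhibitors, CD276 and PVR were lower with TVB-3166 than with ND-646, by log2 values of -0.65 (edgeR adjusted p = 0.000945) and -0.51 (adjusted p = 0.0133). Neither was called when edgeR was fitted with only the libraries compared (adjusted p = 0.0690 and 0.176). Between both lipogenesis inhibitors and the other 4 drug groups, the log2 differences were -1.40 for ULBP2 (adjusted p = 2.37e-06), -1.30 for MICB (adjusted p = 0.00677), -1.11 for CD274 (adjusted p = 1.89e-05), -0.24 for PVR (adjusted p = 0.0133), and 0.36 for CD276 (adjusted p = 0.000118). PVR averaged 131.3 CPM with TVB-3166 but 186.0 CPM with ND-646, and CD276 averaged 42.2 CPM with ND-646 but 27.0 CPM with TVB-3166. Between the DNA-damaging drugs and the kinase inhibitors alisertib and palbociclib, the log2 differences were 1.32 for MICB (adjusted p = 0.00894) and 0.96 for CD274 (adjusted p = 0.000514). The libraries of both sides overlapped for MICB and for CD274. No group has enough libraries for a test of single outlying values.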

How the results depend on the processing

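Of 761 values of the 8 genes under the alternatives other than leaving out a library and the threshold on fold-change, which is given separately, 731 kept their direction and their side of the threshold, 18 lost the call, 12 gained it, and none reversed. Of 1200 values with 1 library left out, 1099 kept both, 80 lost the call, 21 gained it, and none reversed. The causes were not tested. The depth limits MICB most, with 3 counts in its lowest library, and 3 libraries a group limit all calls.

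With a fold-change of at least 2 and an unadjusted p under 0.05, the number of the 8 called against day-0 was 0 with TVB-3166, 1 each with bleomycin, alisertib, and palbociclib, and 2 with doxorubicin. Against day-7 it was 0 with alisertib, 1 each with TVB-3166 and palbociclib, and 2 with doxorubicin, and in the contrasts it was 1 for TVB-3166 against ND-646, 3 for the lipogenesis inhibitors, and 1 for the DNA-damaging drugs. With all 24 libraries in one fit it was 5 for ND-646 against day-0 and, against day-7, 2 for bleomycin, 0 for alisertib, and 2 for doxorubicin. With no filter it was 3 for doxorubicin against day-0 and 0 for alisertib against day-7. With at least 10 counts in every library it was 1 for the DNA-damaging drugs, and with only the libraries compared it was 0 for TVB-3166 against ND-646.

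The labels do not say whether same-numbered libraries are paired in any comparison. With the replicate number as a block, 2 were called for alisertib against day-7, where same-numbered libraries deviated together in all 3 numbers. For bleomycin against day-7 and TVB-3166 against ND-646 the block changed no call, and for the DNA-damaging drugs, where most but not all pairs of groups deviated together in this way, it called 3 by adding PVR. Where same-numbered libraries did not deviate together in all 3 numbers, the block called 3 genes each with ND-646 and bleomycin against day-0 and 4 each with the other 4 drugs. There MICB with palbociclib was called under the block against day-0 (log2 -1.12) and day-7 (log2 -1.19), and all 6 libraries correlated best with their own number for bleomycin, alisertib, palbociclib, and untreated day-7 cells against day-0.

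Leaving out 1 library, the number called against day-0 ranged from 1 to 5 with ND-646, 2 to 5 with TVB-3166, 1 to 2 with bleomycin, 2 to 3 with alisertib, 3 to 5 with doxorubicin, 2 to 3 with palbociclib, and 0 to 0 in untreated day-7 cells. Against day-7 it ranged from 2 to 3 with ND-646 and with TVB-3166, 1 to 4 with bleomycin, 0 to 1 with alisertib, 1 to 5 with doxorubicin, and 2 to 4 with palbociclib. In the contrasts it ranged from 1 to 2 for TVB-3166 against ND-646, 4 to 6 for the lipogenesis inhibitors, and 2 to 3 for the DNA-damaging drugs. Without day-0 replicate 1, which stood apart, 2 genes each were called against day-0 with ND-646, TVB-3166, and palbociclib, 1 with bleomycin, 3 with alisertib, and 4 with doxorubicin, and without ND-646 replicate 1 it was 5 with ND-646 against day-0.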
